A study of Mus musculus with 9 samples.

Results

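The 10 apolipoprotein genes Apoa1, Apoa2, Apoa4, Apob, Apoc1, Apoc2, Apoc3, Apoe, Apom and Apoh were followed through arrays labelled as liver of female MRL +/+ mice. They were taken by symbol, and they are 10 of the 18193 genes that the array's annotation names through a probe set with a single symbol. The array carries 17 probe sets for them, all of which were bright enough to be tested. Probe sets are groups of short probes for one transcript, and the brightest of each gene stands for it below unless another is named. The mice had received dichloroacetyl chloride (DCAC, 3 mice), dichloroacetic anhydride (DCAA, 3 mice) or corn oil alone (control, 3 mice). DCAC is an acyl chloride and DCAA an acid anhydride, and both hand on the same dichloroacetyl group. Each compound was given into the peritoneum at 0.2 mmol/kg in 100 µl of corn oil, with 2 injections a week for 6 weeks. Tissue labelled as liver was collected at 11 weeks of age, 24 h after the last injection, and each array holds the RNA of 1 mouse. MRL +/+ is an inbred strain with a late tendency to autoimmune disease, and all 3 groups share it. The labels name the controls untreated, whereas the design text gives them the oil.

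Apolipoproteins are the protein part of the particles that carry cholesterol and triglyceride through blood. Apob is the scaffold of very low density and low density lipoproteins, and the small exchangeable apolipoproteins move between particles, where they act as enzyme cofactors, inhibitors or receptor ligands. Hepatocytes make most of them, so their transcripts are among the most abundant in a liver.

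Signals are linear intensities from the scanner software, which the authors had scaled to the same trimmed mean on each array. Differences are given as log2 of the first group over the second, with the 95% interval of a fit in limma that holds all 3 groups. A call is an adjusted p under 0.05 over all 24531 probe sets tested. The arrays have no read depth, and their number limits the precision. For a compound against control the interval of a member reached a median of 1.27-fold either way. The array medians lay between 157.2 and 186.1 signal units on 8 of 9 arrays and at 214.3 on DCAA 3. The library labelled control 2 went against its label, with kidney markers high and the summed signal of liver markers low. Its 20 measured kidney markers were all above the array median and summed to 309753 signal units, against 1914 to 3407 on the other 8 arrays, where 3 to 6 were above it. Its hepatocyte markers other than apolipoproteins summed to 40083, against 619950 to 851150. Of the 17 measured, 11 were above the array median on control 2, against all 17 on the other 8 arrays. Control 2 was shown beside the values and kept out of the comparisons, which leaves 2 control livers.

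The member that departed from the rest was Apom, and its promoter is printed below with those of Apob and Apoc2, whose values followed those of the other members. Each run is the 250 bases before the transcription start, read on the gene's strand from the RefSeq promoter table (GRCm38.p6), which matched 8 of 10 members with 11 windows. Apoc1 and Apoc3 are named only. Capitals mark letters found on either strand by a search for 3 motifs, which were chosen with these windows in view. The Apom window is chr17:35131802-35132051 (minus strand), that of Apoc2 is chr7:19677942-19678191 (minus strand) and that of Apob is chr12:7977427-7977676 (plus strand).

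Apom: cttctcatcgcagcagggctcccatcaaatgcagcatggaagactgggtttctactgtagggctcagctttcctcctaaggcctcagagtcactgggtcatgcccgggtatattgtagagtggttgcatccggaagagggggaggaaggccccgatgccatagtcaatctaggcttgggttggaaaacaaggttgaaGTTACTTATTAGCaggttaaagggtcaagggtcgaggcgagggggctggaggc
Apoc2: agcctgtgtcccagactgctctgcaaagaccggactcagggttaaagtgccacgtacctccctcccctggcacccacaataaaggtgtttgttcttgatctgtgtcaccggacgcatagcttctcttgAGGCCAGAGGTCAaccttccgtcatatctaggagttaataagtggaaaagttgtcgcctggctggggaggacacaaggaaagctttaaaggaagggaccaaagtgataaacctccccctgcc
Apob: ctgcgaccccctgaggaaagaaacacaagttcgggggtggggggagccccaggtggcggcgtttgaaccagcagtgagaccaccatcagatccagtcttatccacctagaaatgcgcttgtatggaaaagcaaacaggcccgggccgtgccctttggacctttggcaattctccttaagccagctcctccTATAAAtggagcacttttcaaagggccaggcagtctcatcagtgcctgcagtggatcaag

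The capitals in Apom match GTTANTNATTANC, a form of the site of the hepatocyte factor HNF1, and begin 53 bases before the start. That pattern occurs in 26 of 32851 RefSeq windows of the same length (0.0791%), and among the members in Apom. The capitals in Apoc2, 122 bases before the start, match AGGNCANAGGNCA, a direct repeat of the kind bound by nuclear receptors, which 111 windows (0.338%) hold. Apob carries TATAAA 60 bases before the start, and windows of Apoa2 and Apoe hold it at other distances. This TATA box sequence is in 4063 of all windows (12.4%). In the printed windows no capitals of different motifs overlap. A match describes letters in a window and is not a measured binding site.

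All 10 members were bright on the 8 arrays. The lowest percentile that a member's signal took on any of them lay between 94.9 for Apom and 100 for Apoa2, whose probe set had the highest signal on each array. The coefficient of variation over the 8 arrays lay between 9.59% for Apoc2 and 32.4% for Apom, with a median of 14.6%. The highest array exceeded the lowest by 1.31-fold for Apob and by 3.46-fold for Apom, the extremes of the 10 genes. In RNA from whole livers, fewer cells of a type and less RNA per cell cannot be told apart.

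None of the 10 members passed the threshold in any comparison. With DCAC all 10 stood above the control mean, by 0.05 to 0.25 on the log2 scale, but the groups overlapped for each. With DCAA 9 of 10 stood above both controls on every array, by 0.23 to 0.50, and Apom lay below both on every array, at -0.69. Of all probe sets tested, 16.2% lay above both controls on every DCAA array and 15.6% below. In the brightest signal range, which holds 6 members, 97.5% of the 81 other probe sets were higher with DCAA by the group difference. That share was 84.3% in the range of Apob and 60.5% in the range of Apoa4 and Apoc2. Apom was also higher on all 3 DCAC arrays than on all 3 DCAA arrays, at 0.92.

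**Figure D1:**
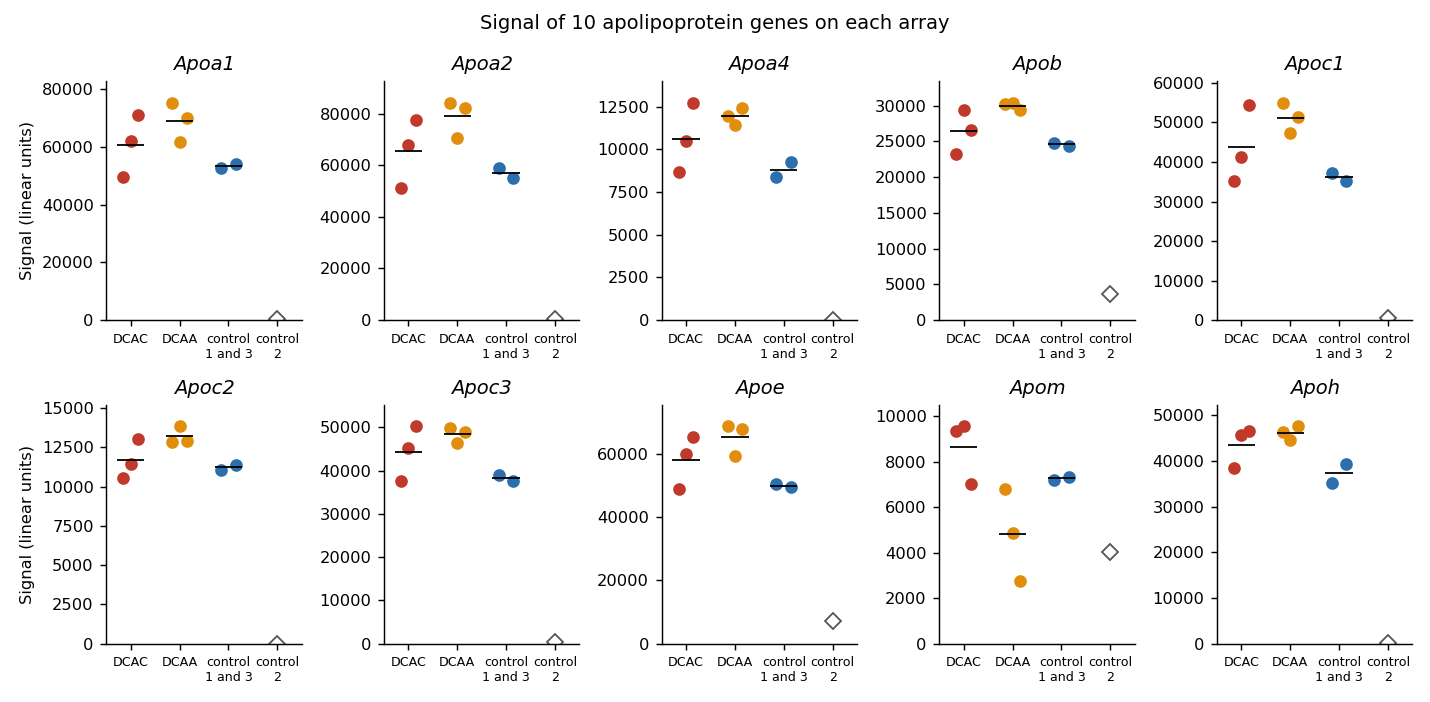
Signal of each member's brightest probe set, in linear signal units with each axis starting at 0, for DCAC, DCAA, controls 1 and 3, and control 2. Filled points are single mice, lines are the group means (n = 3 for DCAC and DCAA, n = 2 for control), and the open diamond is control 2, kept out of the means. The DCAA points lie above both controls for 9 genes and below both for Apom.

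Among the proteins of high density lipoprotein, Apoa1 is the main structural one and activates the cholesterol-esterifying enzyme LCAT. Its signals were 49574, 61920 and 70892 on the DCAC arrays, 75287, 61664 and 69970 on the DCAA arrays, 52809 and 53960 on controls 1 and 3, and 188.5 on control 2. DCAC 1 lay below both controls, and the 3 DCAA livers lay above them. The difference was 0.17 (-0.19 to 0.54) with DCAC and 0.36 (-0.0022 to 0.73) with DCAA. Its 4 probe sets gave 0.12 to 0.20 with DCAC and 0.34 to 0.36 with DCAA.

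Apoa2, the other abundant protein of these particles, averaged 65567 ± 13309 signal units with DCAC and 78975 ± 7418 with DCAA (SD, n = 3 each), against 56935 ± 2769 in control (SD, n = 2). Its single signals were 51280, 67809 and 77612 with DCAC, 84269, 70496 and 82159 with DCAA, 58893 and 54978 on controls 1 and 3, and 543.7 on control 2. The lowest array of all 8 was DCAC 1 and the highest was DCAA 1. The difference was 0.18 (-0.21 to 0.57) with DCAC and 0.47 (0.08 to 0.86) with DCAA, where limma gave an adjusted p of 0.320.

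Apoa4, which rides on chylomicrons and high density lipoprotein and is made in mouse liver as well as in the gut, had signals of 8656, 10518 and 12732 with DCAC. It had 11932, 11452 and 12448 with DCAA, 8362 and 9272 on controls 1 and 3, and 10.0 on control 2. The 3 DCAA livers lay close together, above both controls, while DCAC 1 lay between the controls. Its difference was 0.25 (-0.10 to 0.61) with DCAC, for which limma's unadjusted p of 0.149 was the smallest of the 10 members (adjusted p = 0.978), and 0.44 (0.08 to 0.80) with DCAA. A dimmer Apoa4 probe set gave 0.29 with DCAC and 0.28 with DCAA. Intestinal epithelium markers, 11 of them measured, summed to 3018 to 4033 signal units with DCAC and 3717 to 4198 with DCAA, against 3670 to 4121 in control, and 3 or 4 exceeded the array median. Their part in the Apoa4 values was not tested.

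Apob, which stays on its particle from secretion to uptake, had signals of 23275, 29437 and 26566 on the DCAC arrays. They were 30280, 30401 and 29367 on the DCAA arrays, 24837 and 24412 on controls 1 and 3, and 3610 on control 2. The DCAA livers differed from one another by little and exceeded both controls, and DCAC 1 was the lowest of all 8. The difference was 0.10 (-0.21 to 0.40) with DCAC and 0.29 (-0.02 to 0.59) with DCAA. A dimmer Apob probe set stood at 0.20 with DCAC and 0.19 with DCAA.

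The C apolipoproteins are small proteins that tune lipoprotein lipase and particle uptake. Apoc1, which slows the clearance of particles by receptors, had the largest positive difference with DCAA among the 10 members. Its signals were 35287, 41339 and 54499 with DCAC, 54992, 47339 and 51383 with DCAA, 37205 and 35315 on controls 1 and 3, and 461.0 on control 2. With DCAA the difference was 0.50 (0.11 to 0.88), or 1.41-fold, which did not pass (limma adjusted p = 0.289). With DCAC it was 0.25 (-0.14 to 0.63), and DCAC 1 lay below both controls.

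Apoc2, the cofactor that lipoprotein lipase needs, had signals of 10574, 11422 and 13035 with DCAC. Its signals were 12875, 13833 and 12922 with DCAA, 11076 and 11387 on controls 1 and 3, and 9.0 on control 2. Its DCAA livers lay above both controls and its DCAC livers on either side of them. The difference was 0.05 (-0.25 to 0.35) with DCAC and 0.23 (-0.07 to 0.53) with DCAA.

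Apoc3, which hinders lipoprotein lipase and the uptake of remnant particles by the liver, averaged 44351 ± 6356 with DCAC and 48320 ± 1822 with DCAA (SD, n = 3 each), against 38201 ± 992 in control (SD, n = 2). Single signals were 37572, 45304 and 50176 with DCAC, 49728, 46262 and 48971 with DCAA, 38903 and 37499 on controls 1 and 3, and 333.2 on control 2. Only DCAC 1 of the treated livers lay among the controls. The difference was 0.21 (-0.12 to 0.53) with DCAC and 0.34 (0.01 to 0.67) with DCAA.

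Apoe, the ligand by which remnant particles bind the low density lipoprotein receptor, had signals of 49047, 59988 and 65347 with DCAC. It had 68696, 59350 and 67763 with DCAA, 50469 and 49564 on controls 1 and 3, and 7045 on control 2. DCAC 1 was the lowest of the 8 and the DCAA livers exceeded both controls. The difference was 0.21 (-0.13 to 0.55) with DCAC and 0.38 (0.04 to 0.72) with DCAA. Macrophages make Apoe too. The 12 Kupffer cell and macrophage markers summed to 11655 to 18951 signal units with DCAC and 15649 to 17106 with DCAA, against 11432 to 39110 in control. Their part in the Apoe values was not tested.

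Apoh, beta-2-glycoprotein I, binds anionic phospholipids and is the target of antiphospholipid antibodies. Its signals were 38342, 45610 and 46470 with DCAC, 46403, 44564 and 47521 with DCAA, 35173 and 39357 on controls 1 and 3, and 239.7 on control 2. DCAC 1 lay between the controls, which differed from each other more than for the other members. The difference was 0.22 (-0.09 to 0.53) with DCAC and 0.31 (0.0003 to 0.62) with DCAA. A dim second Apoh probe set disagreed in sign, at -0.14 with DCAC and -0.16 with DCAA, and its groups overlapped.

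Apom is carried on high density lipoprotein, where it binds sphingosine 1-phosphate. Its brightest probe set had signals of 9349, 9551 and 7000 with DCAC, 6820, 4876 and 2762 with DCAA, 7214 and 7344 on controls 1 and 3, and 4045 on control 2. The signals fell stepwise from DCAA 1 to DCAA 3, and DCAC 3 lay just under both controls. Its mean signal was 8633 ± 1418 with DCAC and 4819 ± 2030 with DCAA (SD, n = 3 each), against 7279 ± 91.9 in control (SD, n = 2). The difference was 0.23 (-0.40 to 0.86) with DCAC and -0.69 (-1.32 to -0.06) with DCAA, which did not pass (limma adjusted p = 0.359). The DCAA value was -0.34 without DCAA 3 and -0.99 without DCAA 1. The dimmer Apom probe set gave 0.14 with DCAC and -0.77 (-1.40 to -0.15) with DCAA. Its signals were 6785, 7268 and 4840 with DCAC, 5161, 3140 and 2185 with DCAA, 5464 and 5773 on controls 1 and 3, and 2724 on control 2.

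DCAC was set against control to ask whether the acyl chloride changes the liver's transcripts. Limma called 0 of 10 members, beside 8 of all 24531 probe sets (0.0326%), all of them higher and 0% lower. At an unadjusted p under 0.05 it picked 0 members, beside 5.02% of all probe sets, and 5 members without DCAC 1. For 0 of 10 members were the groups free of overlap, while 11.2% of all probe sets had every DCAC array above both controls and 12.5% every one below. All 10 intervals included 0. The members' median was 0.21, against -0.03 over all probe sets tested. The median was 0.10 without DCAC 3 and 0.32 without DCAC 1.

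DCAA was compared with control in the same way. Limma called 0 of 10 members, beside 20 probe sets (0.0815%), with 0.0693% of all probe sets higher and 0.0122% lower. At an unadjusted p under 0.05 it picked 7 members, 6 higher and Apom lower, beside 12.6% of all probe sets. Of the 17 tested hepatocyte markers that are not apolipoproteins it picked 10 as higher and 0 as lower. The members' count was 1 without control 1 or without control 3, 3 without DCAA 3, 4 without DCAA 1, 5 without DCAC 2 and 9 without DCAC 1. The arrays did not overlap for any of the 10, with 9 members above control, where 16.2% of all probe sets were, and Apom below, where 15.6% were. For Apoa1, Apob and Apoc2 the interval included 0. The members' median was 0.35, against -0.01 over all probe sets. Both comparisons share the 2 control livers.

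**Figure D2:**
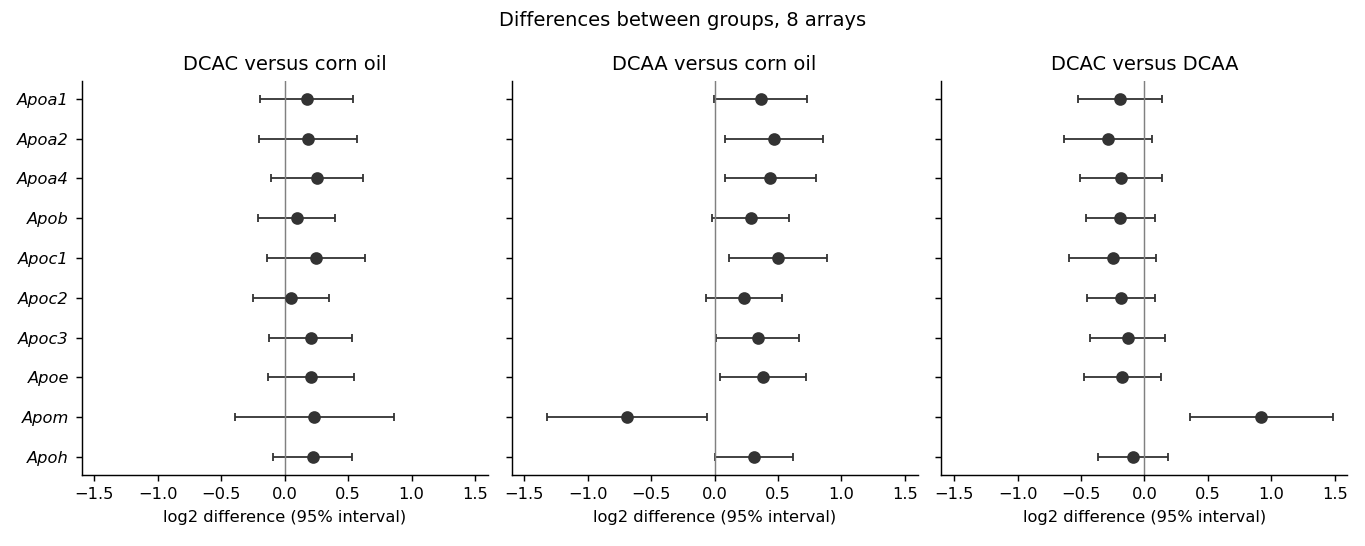
Log2 difference of each member in the 3 comparisons (DCAC versus corn oil, DCAA versus corn oil, DCAC versus DCAA), as points with the 95% interval from limma as lines. All 10 DCAC intervals cross 0, the DCAA points of 9 members lie between 0.23 and 0.50, and Apom lies at -0.69 with DCAA and at 0.92 for DCAC versus DCAA.

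The compounds were compared at the same dose and time, as 1 pair over the 10 members, with p-values adjusted over all probe sets. Limma called 0 members and 1 probe set of all (0.00408%), which was lower with DCAC, and 0% were higher. Apom was 0.92 higher with DCAC than with DCAA (0.36 to 1.48), a ratio of 1.90 with a limma adjusted p of 0.433. It was the 1 member with an unadjusted p under 0.05, beside 9.28% of all probe sets. It was also the 1 member free of overlap, beside 6.32% of all probe sets with every DCAC array above every DCAA array and 7.63% with every one below. By the dimmer Apom probe set the difference was 0.92 as well, but there DCAC 3 lay below DCAA 1. Without DCAA 3 the Apom difference was 0.57. The other 9 members were lower with DCAC by values of -0.28 for Apoa2 to -0.09 for Apoh, with all 9 intervals including 0 and all groups overlapping. Their intervals reached from -0.63 for Apoa2 to 0.19 for Apoh, so differences within those bounds were not excluded. The members' median was -0.18, against -0.01 over all probe sets, and it was -0.06 without DCAC 1.

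The 9 members other than Apom were high and low on the same arrays. Taken as log2 against the mean of controls 1 and 3, their median was -0.04 on DCAC 1, 0.25 on DCAC 2 and 0.39 on DCAC 3. It was 0.44, 0.30 and 0.39 on DCAA 1, 2 and 3. DCAC 1 thus resembled the controls, with 2 of 10 members above their mean, while DCAC 2 had 10 and each other treated array 9. Apom took another course, at 0.36, 0.39 and -0.06 on the DCAC arrays and -0.09, -0.58 and -1.40 on the DCAA arrays. Over the 8 arrays the 36 pairs among the 9 genes had a Pearson r of 0.75 (Apob with Apoc1) to 0.99 (Apoa2 with Apoe), with a median of 0.90. Apom had r of -0.64 (with Apoc2) to -0.44 (with Apoh) with the 9. These are descriptions over 8 arrays that share group, scaling and signal range.

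Some members are neighbours on a chromosome. In the RefSeq gene order of GRCm38.p6, Apoa1, Apoc3, Apoa4 and Apoa5 follow one another on chromosome 9, and Apoe, Apoc1, Apoc4 and Apoc2 on chromosome 7. With DCAA the chromosome 9 genes stood at 0.36, 0.34, 0.44 and 0.29 in that order, and the chromosome 7 genes at 0.38, 0.50, 0.37 and 0.23. The members outside these clusters, Apoa2 on chromosome 1, Apob on chromosome 12 and Apoh on chromosome 11, stood at 0.47, 0.29 and 0.31. Apom, on chromosome 17, was at -0.69.

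In the brightest signal range, other probe sets had differences of similar size to those of the members. Of the 81 further probe sets with a mean signal of at least 32768, the range that holds 6 members, 95.1% were higher with DCAC (median 0.19) and 97.5% with DCAA (median 0.35). Between the compounds 4.94% of them were higher with DCAC, with a median of -0.16. Apob's range, from 16384 up to 32768, had medians of 0.17 with DCAC and 0.23 with DCAA, beside Apob at 0.10 and 0.29. The range of Apoa4 and Apoc2, from 8192 up to 16384, holds 496 further probe sets. Of these 76.8% were higher with DCAC (median 0.13) and 60.5% with DCAA (median 0.08). The upper quartiles there were 0.24 with DCAC and 0.27 with DCAA. Apoa4, at 0.25 and 0.44, lay above both, and Apoc2, at 0.05 and 0.23, under both. Apom's range, with a mean signal from 4096 up to 8192, holds 830 further probe sets, with medians of 0.06 with DCAC and 0.01 with DCAA and of 0.05 for DCAC versus DCAA. With DCAA their lower and upper quartiles were -0.20 and 0.22, and Apom's -0.69 lay under the lower one. The 17 tested hepatocyte markers that are not apolipoproteins had medians of 0.19 with DCAC, 0.34 with DCAA and -0.16 for DCAC versus DCAA, and 0 were called.

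**Figure D3:**
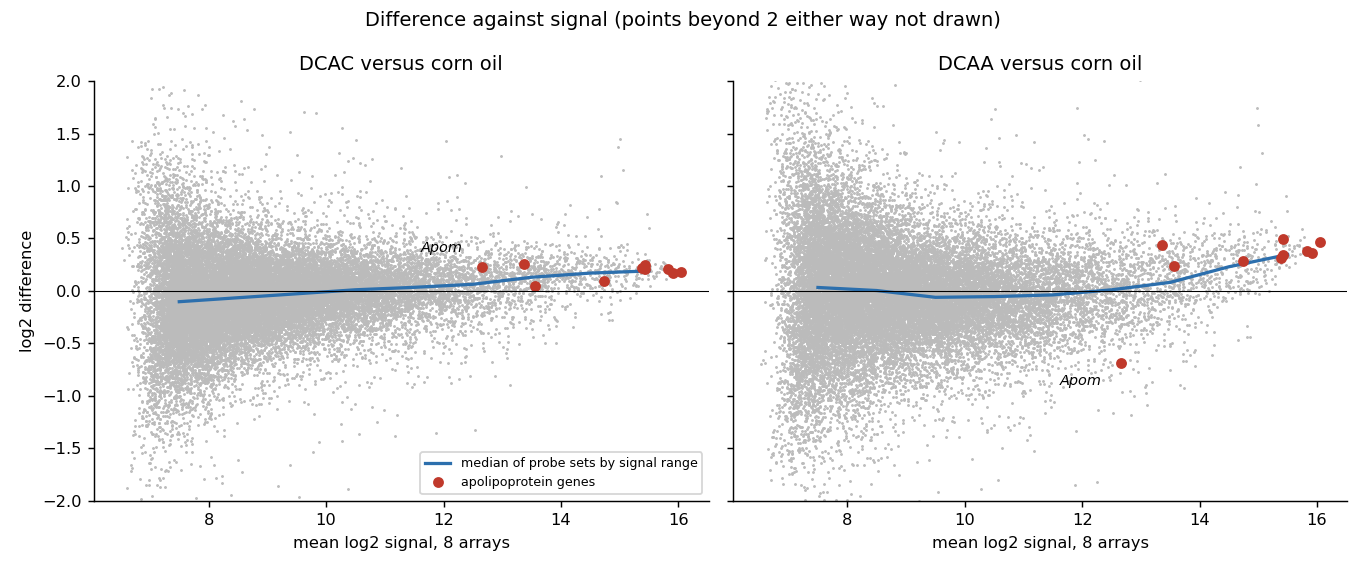
Log2 difference against mean log2 signal over 8 arrays, for DCAC versus corn oil and DCAA versus corn oil, with tested probe sets as grey points (those beyond 2 either way not drawn) and the 10 members in red. The 6 members in the brightest range lie among the 81 other probe sets there, whose medians are 0.19 with DCAC and 0.35 with DCAA, and Apom lies under the lower quartile of its range with DCAA. The blue line joins the medians of probe sets by signal range.

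A measure of RNA quality differed in the same arrays. The ratio of 3' to 5' probe sets for pyruvate carboxylase, which grows as transcripts shorten or labelling stops early, was 2.85, 3.99 and 12.8 on the DCAC arrays. It was 6.43, 8.38 and 10.9 on the DCAA arrays, against 3.93 and 3.32 on controls 1 and 3. DCAC 3 and the 3 DCAA arrays form the high class, and the same 4 arrays had the highest actin ratios, at 2 for DCAC 3 and 1.99, 1.76 and 2.59 for DCAA 1, 2 and 3, against 1.30 to 1.51 on the other 4. With that class as a block, the members' median with DCAA was 0.04 and Apom stood at -0.26, and for DCAC versus DCAA the median was 0.03 and Apom stood at 0.63. In that fit no control is in the high class, so the value of DCAA rests on DCAC 3 against DCAC 1 and 2. On DCAA 1, 2 and 3 Apom's signals were 6820, 4876 and 2762, falling as the pyruvate carboxylase ratio rose. The actin ratios of these 3 arrays did not rise in the same order. DCAC 3, whose pyruvate carboxylase ratio of 12.8 was the highest, had an Apom signal of 7000, against 7214 and 7344 on controls 1 and 3. The block does not adjust within the DCAA group, and a link of Apom to the ratio was not tested.

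These differences changed with the scaling of the arrays. Apoa2 was the top probe set of all 8 arrays, so quantile normalization, which gives equal ranks equal values, holds its difference at 0, and the other members near the top are bound in the same way. Under it the members' median was 0 with DCAC and -0.01 with DCAA. Apom, further from the top, stood at -0.72 with DCAA and 0.88 for DCAC versus DCAA. With all arrays set to a common median, Apom was at -0.81 with DCAA, and the median of all probe sets itself moved to -0.12.

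**Figure D4:**
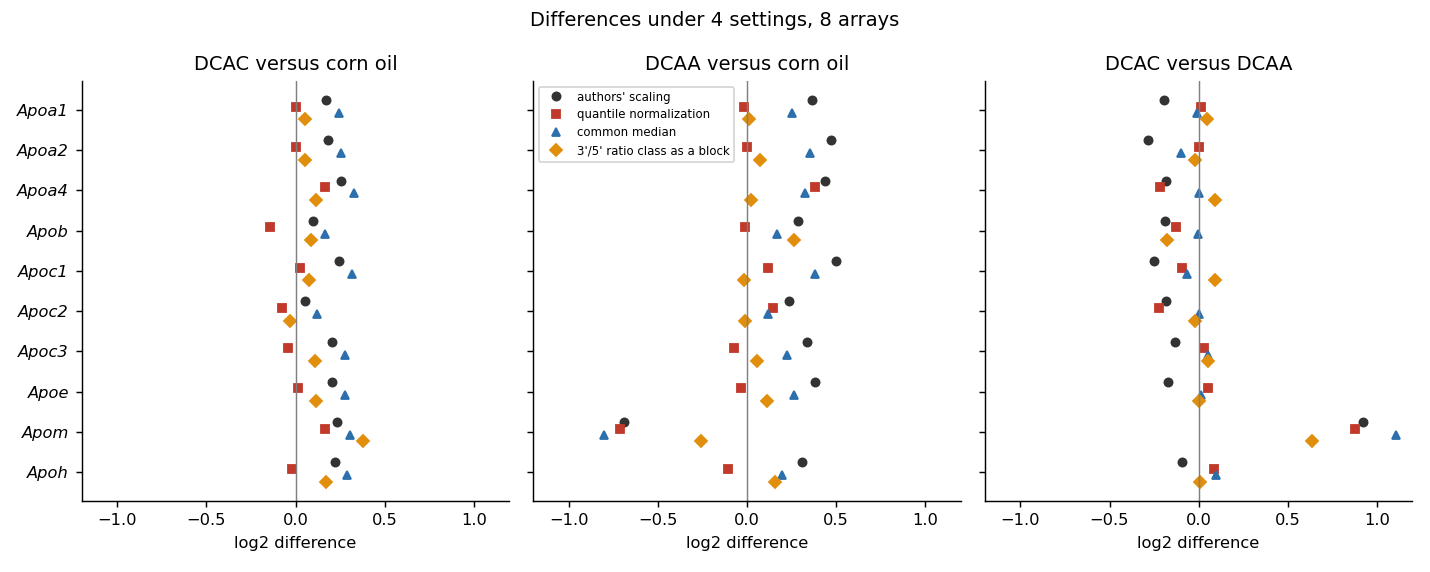
Log2 difference of each member in the 3 comparisons under 4 settings: the authors' scaling, quantile normalization, a common array median, and a block for the class of high 3'/5' ratio. With DCAA, Apoa4 lies at 0.38 under quantile normalization and at 0.02 with the block, against 0.44 with the authors' scaling, and Apoa2 lies at 0 under quantile normalization. Apom lies below 0 with DCAA and above 0 for DCAC versus DCAA under all 4.

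The other apolipoprotein genes on a list of 14 were measured next, and 9 of them were tested. Saa1 and Saa2, serum amyloid A proteins that ride on high density lipoprotein in the acute phase, rose with both compounds, and the other 7 did not pass. Saa1 had signals of 46752, 56348 and 65821 with DCAC and 19481, 59707 and 68791 with DCAA, against 2954 and 3699 in control. Its difference was 4.08 with DCAC (limma adjusted p = 0.00308) and 3.70 with DCAA (adjusted p = 0.00586). Saa2 stood at 4.59 with DCAC (limma adjusted p = 0.0149) and 3.98 with DCAA (adjusted p = 0.0227). Its signals were 7524 on DCAA 1 against 44147 and 44319 on DCAA 2 and 3, with 1557 and 1541 in control. Whether the Saa1 and Saa2 probe sets also read each other's transcript was not tested. Over 22 alternatives Saa1 kept its call with DCAC in 17 and with DCAA in 15, and Saa2 kept it with DCAC in 13 and with DCAA in 12. With control 1 left out Saa1 missed the threshold for both compounds (adjusted p = 0.0521 with DCAC and 0.0557 with DCAA), and with control 3 left out it did so for DCAA (0.0553). For Saa2 the call was lost with either control left out, without DCAC 2 (adjusted p = 0.0832) or DCAC 3 (0.117) for DCAC, and without DCAA 2 (0.0939) or DCAA 3 (0.121) for DCAA. With the 3'/5' class as a block the difference with DCAA was 3.35 for Saa1 (adjusted p = 0.352) and 3.69 for Saa2 (adjusted p = 0.602), and Saa2 also missed the threshold with DCAC, at 4.49 (adjusted p = 0.117).

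Apon was at 0.52 with DCAC and 0.55 with DCAA, with no overlap between treated livers and controls. Saa4, a serum amyloid A protein made constitutively, was at 0.38 with DCAC and 0.45 with DCAA, also free of overlap. Every DCAC array lay above both controls for 11.2% of all probe sets tested, and every DCAA array for 16.2%. Apof, a protein of low and high density lipoproteins, stood at 0.24 with DCAC and 0.39 with DCAA. Apoc4 was at 0.18 with DCAC and 0.37 with DCAA, Clu (apolipoprotein J, a secreted chaperone) at 0.15 with DCAC and 0.35 with DCAA, and Apoa5, which aids lipoprotein lipase, at 0.41 with DCAC and 0.29 with DCAA. Apol6 stood at 1.06 with DCAC and 1.22 with DCAA, on signals of 147.8 to 267.1 in treated livers, against 44.6 and 131.2 in control. The 44.6, on control 1, lay under that array's 25th percentile of 55.4 and was raised to the floor before the fit. Apof and Apol6 were free of overlap with both compounds as well, and Apoc4, Clu and Apoa5 with DCAA only. Of the list, 9 of 9 were higher with each compound, against 49.8% of all genes with DCAC and 50% with DCAA. Probe sets as bright as most of these genes leaned the same way. Of those with a mean signal from 16384 up to 32768, 89.3% were higher with DCAC and 84.3% with DCAA. That range holds Apon, Apof, Apoc4, Clu and Apoa5. Its upper quartiles were 0.28 with DCAC and 0.39 with DCAA. Apon lay above both, Apoa5 above that of DCAC, Apof level with that of DCAA, and Apoc4 and Clu under both. In Saa4's range, from 8192 up to 16384, 76.8% were higher with DCAC and 60.5% with DCAA. The upper quartiles there were 0.24 and 0.27, under Saa4's 0.38 and 0.45. Apod and Apol8 were too dim to be tested, and Lpa, Apol9a and Apol9b were not analysed here.

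Genes that act on the particles were examined by role, beside all 12293 genes, of which limma picked 5.45% with DCAC and 13.2% with DCAA at an unadjusted p under 0.05. Of 15 genes for particle assembly and secretion, 0 were called with either compound. Tmem41b, a scramblase of the endoplasmic reticulum that lipoprotein secretion needs, was at 0.07 with DCAC and 0.64 with DCAA, and P4hb, a subunit of the transfer protein that lipidates Apob, at 0.25 with DCAC and 0.33 with DCAA. Mia2, an export factor of the endoplasmic reticulum, was at -0.33 with DCAC and -1.40 with DCAA. Its signals were 193.7 to 527.6 with DCAC and 33.8 to 251.9 with DCAA, against 379.5 and 415.5 in control. The 33.8, on DCAA 2, lay under that array's 25th percentile of 60.6 and was raised to the floor before the fit. DCAA 1 and 3 had 222.5 and 251.9. At an unadjusted p under 0.05, limma picked 0 of the 15 with DCAC and 3 with DCAA.

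Of 9 genes of high density lipoprotein formation, 0 were called, and 1 had an unadjusted p under 0.05 with DCAC and 0 with DCAA. Scarb1, the receptor that takes up its cholesterol, was at 0.41 with DCAC and 0.28 with DCAA, Lcat at 0.32 with DCAC and 0.28 with DCAA, and Abca1, which loads lipid onto Apoa1, at -0.20 with DCAC and -0.31 with DCAA. Of 11 receptor and uptake genes 0 were called, and limma picked 2 with DCAC and 0 with DCAA at an unadjusted p under 0.05. The share of all genes picked was 5.45% with DCAC and 13.2% with DCAA. Lrp1, a receptor for Apoe-bearing remnants, stood at 0.48 with DCAC and 0.29 with DCAA, and Cd36, a fatty acid receptor, at 0.77 with DCAC and 0.51 with DCAA.

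Among 6 lipases and their regulators 1 gene was called. Angptl4, an inhibitor of lipoprotein lipase, rose with DCAA, with signals of 2779, 3209 and 3015, against 1045 and 1089 in control (log2 difference 1.49, limma adjusted p = 0.0227). That call held in 13 of 22 alternatives. It was lost, with differences of similar size, without control 1 (1.46, adjusted p = 0.131), control 3 (1.52, adjusted p = 0.154), DCAA 2 (1.44, adjusted p = 0.0939) or DCAA 3 (1.48, adjusted p = 0.117). With the 3'/5' class as a block the difference was 1.56 (adjusted p = 0.427). With DCAC it had 1304, 2299 and 1649, a difference of 0.67 that did not pass (adjusted p = 0.767). For DCAC versus DCAA it was at -0.81 (adjusted p = 0.403). Angptl8, a partner of that family in lipase control, was at -1.89 with DCAC (adjusted p = 0.0954) and -1.35 with DCAA (adjusted p = 0.163). Gpihbp1, which anchors lipoprotein lipase in capillaries, was at -0.32 with DCAC and -0.38 with DCAA.

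Of 21 regulators of apolipoprotein genes, limma called 0 and picked 2 with DCAC and 5 with DCAA at an unadjusted p under 0.05. Of all genes it picked 5.45% with DCAC and 13.2% with DCAA. Srebf1, a driver of lipid synthesis genes, was at -0.81 with DCAC (adjusted p = 0.344) and -1.0025 with DCAA (adjusted p = 0.0850). Ppara, the fatty acid-sensing receptor, had signals of 4895, 5115 and 9414 with DCAC and 10835, 8778 and 9339 with DCAA, against 5184 and 4417 in control. DCAC 3 and the DCAA arrays, those of the high 3'/5' class, were the high ones. Its difference was 0.37 with DCAC and 1.01 with DCAA (limma adjusted p = 0.165). Ppargc1a, a coactivator, was at 0.23 with DCAC and 0.79 with DCAA.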

How the data were processed

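Total RNA of 9 samples labelled as liver was hybridised to Affymetrix arrays, 1 per mouse, and each sample's group was read from its labels. The deposited values are linear intensity, 1 per probe set, which the authors made with GCOS, per the submitters' processing notes; its version is not given in the sources used here. In the file every array has a mean of 500 without the top and bottom 2% of values. No detection or saturation flag was used, so whether the brightest probe sets were saturated is unknown here.

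Of 45101 probe sets, 64 manufacturer controls were left out. Signals under the array's 25th percentile were raised to it and log2 was taken. Probe sets above their array's median on at least 3 of 8 arrays were kept, giving 24531 probe sets and 12293 genes. Probe set names come from the platform annotation. Limma 3.58.1 in R 4.3.3 (lmFit, eBayes with an intensity trend) fitted 3 groups without covariates, two-sided, with Benjamini-Hochberg adjustment over the probe sets kept. No 2 of the 36 array pairs held identical values. The 8 arrays correlated with each other at a Spearman rho of 0.859 to 0.929, and control 2 at a median of 0.806.

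On simulated data with 24531 probe sets and 200 changed by 2-fold, limma called 4% of them for DCAC and 1.5% for DCAA, and at 4-fold 58% and 60.5%. With no probe set changed it called 0. The noise was drawn independently for each probe set and array. Shifts shared by the probe sets of an array, such as those that go with the 3'/5' class, were therefore not simulated. Changes smaller than 2-fold were not simulated either. The members and lists were chosen with earlier results of these data known, and the lists support nothing by themselves. All members and other apolipoproteins are named and, of each further list, up to 3 genes with the smallest unadjusted p against control and any called gene. Alternatives were other scalings and array weights, floors and filters, other eBayes settings, blocks and leaving out each array.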

Additional observations from a re-analysis of the deposited data

How the results depend on the processing

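Limma called 0 of 10 members in each comparison under all 22 alternatives. Quantile normalization moved the members' median to 0 for DCAC versus control, -0.0147 for DCAA versus control and 0.0077 for DCAC versus DCAA. Under it the sign turned with DCAC for Apob (-0.1419), Apoc2 (-0.0767), Apoc3 (-0.0432) and Apoh (-0.0205). With DCAA it turned for Apoa1 (-0.0155), Apob (-0.0139), Apoc3 (-0.0732), Apoe (-0.0352) and Apoh (-0.1053), and for DCAC versus DCAA for Apoa1 (0.0155), Apoc3 (0.03), Apoe (0.0517) and Apoh (0.0848). A common median moved the median for DCAC versus DCAA to 0.0029, with Apoa4 at 0.002, Apoc2 at 0.0038, Apoc3 at 0.0532, Apoe at 0.012 and Apoh at 0.095. The 3'/5' class as a block moved the median to 0.0395 for DCAA versus control and 0.0273 for DCAC versus DCAA. It put Apoc2 at -0.0312 with DCAC, Apoc1 at -0.0163 and Apoc2 at -0.0127 with DCAA. For DCAC versus DCAA it put Apoa1 at 0.0444, Apoa4 at 0.0931, Apoc1 at 0.0917, Apoc3 at 0.0551, Apoe at 0.0048 and Apoh at 0.0101. With all 9 arrays, control 2 included, the median was 2.4529 with DCAC and 2.6619 with DCAA. Leaving out 1 array gave medians of 0.0997 to 0.3158 for DCAC versus control, 0.3121 to 0.4064 for DCAA versus control and -0.2643 to -0.0551 for DCAC versus DCAA, and put Apoc2 at -0.0312 (without DCAC 3) to 0.1197 (without DCAC 1) with DCAC. Apom kept its signs in all 3 comparisons, at -0.99 to -0.34 with DCAA when 1 array was left out.

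With replicate number as a block the members' median was 0.2084 for DCAC versus control, 0.3687 for DCAA versus control and -0.1835 for DCAC versus DCAA, and no member's call changed. Arrays that share a replicate number across groups had deviations from their group means that correlated at -0.0408 to 0.0275, against -0.0664 to 0.0736 for differing numbers, and the mice were treated as unpaired. Over all probe sets the calls for DCAC, 8 here, ranged between 0 without an intensity trend and 30 with array weights. Those for DCAA, 20 here, ranged between 0 without a trend and 141 with array weights, and those for DCAC versus DCAA, 1 here, between 0 and 3. Members with an unadjusted p under 0.05 with DCAA, 7 here, numbered 0 without a trend, with all 9 arrays and with the 3'/5' block, 1 to 9 when 1 array was left out, and 1 to 9 under the other settings. With 2 or 3 mice a group, the intervals of 10 members included 0 for DCAC versus control, of 3 for DCAA versus control and of 9 for DCAC versus DCAA. The causes of the changes between settings were not tested.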

Other observations

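For each member the gene most like it was found by Pearson r of log2 signal over the 8 arrays, as a description. Apoa1 was closest to Rbp4, the plasma carrier of retinol (r = 0.98), Apoa2 to Serpina1b, an alpha-1-antitrypsin (0.99), and Apoc3 to Fgb, the fibrinogen beta chain (0.99). Apoc1 was closest to Hpd, an enzyme of tyrosine breakdown (0.9961), Apoe to Serpina1b (0.99), Apob to Pzp, a plasma proteinase inhibitor (0.97), and Apoa4 to Glg1, a Golgi protein (0.99). Apoc2 was closest to Zdhhc16 (0.98) and Apoh to Rbm5 (0.98). Apom was closest to Ndfip2, an adaptor of ubiquitin ligases (0.99). An r over 0.95 was reached with 36 genes by Apom, with 1 by Apob and with 8 to 35 by the other members. Each partner was picked as the highest among the 12293 genes kept, over only 8 arrays, and no background for r was computed. On control 2 Apom was the member nearest to the other controls, at 4045 against 7214 and 7344.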
